A study of Mus musculus with 24 samples.

Results

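The regions described here are intronic STAU2 RIP peaks that crowd into few genes. A peak was taken when its midpoint lay inside an annotated gene of its own strand but in no exon of that strand, and when its gene, called the host, held 10 or more such peaks on the same embryonic day. The rule kept 3813 of the 29007 deposited peaks, and 3813 of the 9792 intronic ones, in 138 hosts. The peaks were therefore selected on their measured number per gene, and every value below comes from the same lists, so the values are given as description and none was tested.

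STAU2 belongs to the Staufen family, whose members recognise double-stranded stretches of RNA. In neurons and neural progenitors it is known for carrying messenger RNAs to their place in the cell and for tuning how long they last. Introns are the stretches of a primary transcript that splicing removes in the nucleus, and the exons on either side are then joined. Most messenger RNA in the cytoplasm therefore holds exons only, and a peak inside an intron stands for an interval of the genome that the spliced messenger RNA lacks.

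RNA was recovered from mouse embryonic cortex with an antibody against STAU2 and sequenced beside input RNA of the lysate. The groups were STAU2 RIP and Input on each of 4 embryonic days (E11.5, E13.5, E15.5, E17.5), with 3 libraries per group and 24 in all. All were whole cortex pooled over a litter, and strain, genotype and sex are not given in the labels used here. The 3 STAU2 RIP and 3 Input libraries of a day stand behind 1 pair of peak lists, so no library has a value of its own, no spread between litters can be given, and the read depth is unknown.

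At E11.5 the rule kept 1475 peaks in 45 hosts, where the authors had listed 21.9% of all candidate regions at a q-value below 0.01. At E13.5 it kept 952 peaks in 35 hosts, where 19.3% of candidate regions were listed. At E15.5 it kept 753 peaks in 30 hosts, where 37.3% of candidate regions were listed. At E17.5 it kept 633 peaks in 28 hosts, where 36.4% of candidate regions were listed. Both the peaks kept and their hosts were most numerous at E11.5 and fewest at E17.5, but the lists differed in length, with 6530, 5871, 10265 and 6341 peaks in order of day. With the strongest 5871 peaks of each day the hosts numbered 41, 35, 15 and 26, so that E15.5 had the fewest.

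These peaks made up 46.3% of the intronic peaks of E11.5 (exact Clopper-Pearson 95% interval 44.5% to 48.0%) and 47.2% at E13.5 (45.0% to 49.4%). The share was 26.5% at E15.5 (24.9% to 28.1%) and 36.3% at E17.5 (34.0% to 38.6%). The intervals cover counting error only and treat peaks as independent, although neighbours in a host share their gene. Hosts were 5.08%, 5.00%, 2.41% and 3.37% of the genes with an intronic peak on the 4 days, in order, so few genes held a large share of the intronic peaks. They were also longer, with a median span of 78.5 kb against 31.7 kb for the other genes with an intronic peak. The part of gene length in reaching a fixed count was not tested. The intronic share of all peaks was 48.8%, 34.3%, 27.7% and 27.5% from E11.5 to E17.5. With the peaks of each host counted once it was 34.5%, 22.2%, 22.2% and 19.9%, so the values of E13.5, E15.5 and E17.5 stood closer together.

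In most hosts nearly all peaks lay in a single intron, here called the leading intron. The exons that border it mark its ends, so the joined exon ends of the first 2 protein-coding hosts of each day are printed from their spliced transcripts. Lower case marks the last 15 bases of the upstream exon, capitals mark the first 15 bases of the downstream exon, and the intron removed between them holds the peaks.
Gpc4 exon junction: tctatgagatcaacgGTGACCATTTGAAGA
Reep3 exon junction: ctcccgagccgtggtGCTGGTGTTTGGAAT
Xpo7 exon junction: gcggatcatgtgcagAGCCTGGCCCAACTA
Taf3 exon junction: tggccaggacaagatTGTTATCAGCAAGGT
Gsk3b exon junction: gacaagcgatttaagAACCGAGAGCTCCAG
Memo1 exon junction: taaagccatggaaagCCATAAAGATGAGTT
Gli3 exon junction: tcctccattacatgtGCCTTCTGCCTTATC
Plcg1 exon junction: aaatcgaggggtccaTTGATATCCGAGAAA
On GRCm38, the assembly that mm10 names, these introns were chrX:52091801-52164615 on the minus strand in Gpc4 (intron 1) and chr10:67063072-67096789 on the minus strand in Reep3 (intron 1). Those of Xpo7 (intron 1, minus strand) and Taf3 (intron 2, minus strand) were chr14:70707434-70766511 and chr2:9921302-9940926. Those of Gsk3b (intron 2, plus strand) and Memo1 (intron 5, minus strand) were chr16:38144454-38170663 and chr17:74225575-74241904. Those of Gli3 (intron 4, plus strand) and Plcg1 (intron 1, plus strand) were chr13:15613885-15641068 and chr2:160732034-160747774.

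Of the 3813 peaks themselves, called members from here on, 17 could be read from noncoding transcripts of the other strand or from RefSeq promoter windows (GRCm38.p6). Members near each other within 3 introns are shown because they had almost the same signal while their letters differed. As they were chosen for this, they cannot show whether signal depends on sequence. Lower case is used throughout, as no motif is marked. The first 4 lie in intron 1 of Plcg1, which codes for phospholipase C gamma 1, an enzyme of receptor tyrosine kinase signalling.
Plcg1 chr2:160743977-160744026 (+): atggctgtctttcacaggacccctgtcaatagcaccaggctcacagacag
Plcg1 chr2:160744099-160744148 (+): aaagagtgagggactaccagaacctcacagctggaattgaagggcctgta
Plcg1 chr2:160744235-160744284 (+): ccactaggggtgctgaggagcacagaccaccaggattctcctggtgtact
Plcg1 chr2:160744387-160744436 (+): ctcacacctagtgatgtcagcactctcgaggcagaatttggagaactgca
The authors' signal of these 4 peaks was 14.6, 14.6, 14.9 and 14.6, and their GC content was 54%, 50%, 58% and 50%. The next 3 lie in intron 4 of Pde9a, which codes for a cyclic GMP phosphodiesterase.
Pde9a chr17:31433228-31433277 (+): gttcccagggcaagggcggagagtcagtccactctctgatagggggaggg
Pde9a chr17:31433378-31433427 (+): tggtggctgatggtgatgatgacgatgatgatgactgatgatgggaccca
Pde9a chr17:31434307-31434430 (+): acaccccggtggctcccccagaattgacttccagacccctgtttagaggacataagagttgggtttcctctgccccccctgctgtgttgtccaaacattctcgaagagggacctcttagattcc
Their signal was 21.9 in each, at GC contents of 64%, 50% and 54%. The readable Pde9a members not shown, at chr17:31433661-31433710 and chr17:31434885-31434934, also had 21.9, and the former lies between those shown. The last 2 lie in intron 3 of Sept7, which codes for a septin, a filament-forming GTP-binding protein.
Sept7 chr9:25274975-25275024 (+): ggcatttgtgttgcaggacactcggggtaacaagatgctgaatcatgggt
Sept7 chr9:25275162-25275211 (+): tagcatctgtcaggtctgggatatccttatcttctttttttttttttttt
Their signal was 36.1 in both, at GC contents of 50% and 30%.

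At E11.5, Gpc4 held 141 members, more than any other host of that day. It codes for glypican 4, a heparan sulfate proteoglycan of the cell surface. Reep3, which codes for an endoplasmic reticulum protein that keeps this membrane away from mitotic chromosomes, held 118. Plekha5, whose product has a pleckstrin homology domain, held 109, and Rps6ka3, the gene of the ribosomal S6 kinase RSK2, held 101. Nfib and Sox6, both transcription factors of cortical development, held 94 and 87. Ptn, which codes for the secreted growth factor pleiotrophin, held 87, and Prkar2a, a regulatory subunit of protein kinase A, held 56. The first 5 hosts held 563 members, 38.2% of those of the day.

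At E13.5, Xpo7 held 182 members, the highest number of any host on any day. It codes for exportin 7, a nuclear transport receptor. Taf3, a subunit of the general transcription factor TFIID, held 58. Chst8, a sulfotransferase, held 57. Map4k3, a kinase, and Lzts1, a leucine zipper protein, held 48 each. Sept7 held 42, H2afy2, the gene of a macroH2A histone variant, held 36, and Xrn2, a nuclear exoribonuclease that acts at transcription termination, held 34. The first 5 hosts held 41.3% of the members of E13.5.

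At E15.5, Gsk3b held 83 members and Gskip held 36. Gsk3b codes for glycogen synthase kinase 3 beta, a kinase of Wnt signalling, and Gskip for a protein that binds it. The noncoding gene 5530601H04Rik held 70, Memo1, a gene linked to cell motility, held 58, and Ireb2, which codes for the iron regulatory protein IRP2, held 57. Mob3b held 52, and Gab1, which codes for a docking protein of receptor tyrosine kinases, held 33, as did the predicted gene Gm42416.

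At E17.5, Gli3, a transcription factor of Hedgehog signalling, held 79 members. Plcg1 held 64 and Chd7, a chromatin remodeller, held 38. Evi5 held 34, Srrm3, a splicing regulator of neuronal microexons, held 27, and Setd5, a chromatin regulator, held 25. Rusc2 and Phf20l1 held 24 each, as did Cask, which codes for a synaptic scaffold protein.

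**Figure D1:**
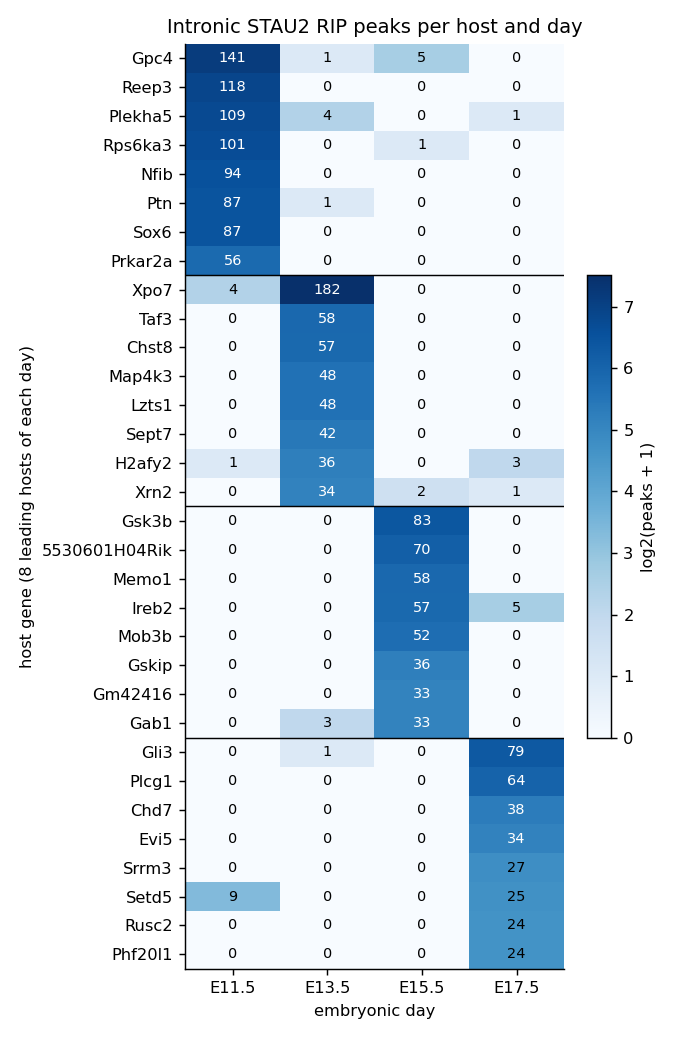
Number of intronic peaks of the 8 leading hosts of each day (rows) on each embryonic day (columns), with the colour on a log2(peaks + 1) scale. The high numbers lie in 1 column per host: from E11.5 to E17.5, Gpc4 has 141, 1, 5 and 0 peaks, and Xpo7 has 4, 182, 0 and 0.

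No host was dense on a second day: all 138 hosts reached 10 peaks on 1 day only, and 0 on 2 or more. In 93 hosts there was no intronic peak at all on the other 3 days, in 34 there were 1 to 4, and in 11 there were 5 or more. All genes with an intronic peak numbered 2825, hosts included, and made up 3663 pairs of gene and day. Most of these genes thus also had intronic peaks on 1 day only, so this was not particular to hosts. The highest number in a host on another day was 9, just under the threshold, in Setd5 and Gm20388 at E11.5 and in Zmym4 at E15.5. At 8 peaks per host, 5 genes passed on 2 days, namely Gm20388, Kif20b, Setd5, St7 and Zmym4, named after their values were seen. Gm20388 has a leading intron of 4384418 bp, so its peaks of different days can lie far apart. Zmym4 then had 31 peaks at E13.5 and 9 at E15.5, and St7 had 8 at E15.5 and 17 at E17.5. Kif20b had 15 at E11.5 and 8 at E17.5. The leading intron itself had no intronic peak on any other day in 123 of the 138 hosts.

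The threshold of 10 fell among genes with nearly equal numbers of peaks. There were 13 hosts at exactly 10 peaks, among them Clasp1, Fbxw11, Cep112 and Rragd, and 23 genes with 9 on a day, among them Rpgr, Rbm20, Tle1 and Cadps. Median signal was 13.8 in Clasp1 and 7.47 in Fbxw11, just inside, and 13.6 in Rbm20 and 8.72 in Cadps, just outside. Evenness varied on both sides. The highest signal over the lowest was 1.04 in Clasp1 and 2.42 in C2cd5, at 10 peaks. With 9 peaks it was 1.04 in Rbm20, 4.86 in Aftph and 6.70 in Setd5 at E11.5.

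Of all members, 3720 (97.6%) had their midpoint in the leading intron of their host, the annotated intron of any transcript that held most of them. Where several introns held equally many, the shortest was taken. That choice lowers the number of longest introns and raises the part of an intron that members span. In 106 hosts all members lay in it, and in 126 at least 90% did. The leading introns had a median length of 9.16 kb, with quartiles of 5.16 and 20.2 kb. They were the longest annotated intron of the host in 34 hosts and the first intron in 33, so under this choice most were neither. Introns were numbered along the longest spliced transcript that has them, and such a transcript may start inside the gene.

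The members reached almost from one end of this intron to the other. From the first base of the first member to the last base of the last, they spanned a median of 94.2% of the intron, and at least 90% in 97 hosts. They covered a median of 27.3% of its bases. The outermost member began a median of 151.5 bp from the 5′ end and stopped a median of 243.5 bp before the 3′ end, with distances counted as negative where a member reached into the exon. Both distances were within 500 bp in 83 hosts. In Plcg1 the 64 members ran from 13 bp after the 5′ end to 114 bp before the 3′ end of an intron of 15.7 kb. In Gsk3b the 83 members left 235 bp and 85 bp free at the ends of an intron of 26.2 kb. In Mob3b, in contrast, the 52 members spanned 51.0% of the intron and began 32929 bp after its 5′ end.

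**Figure D2:**
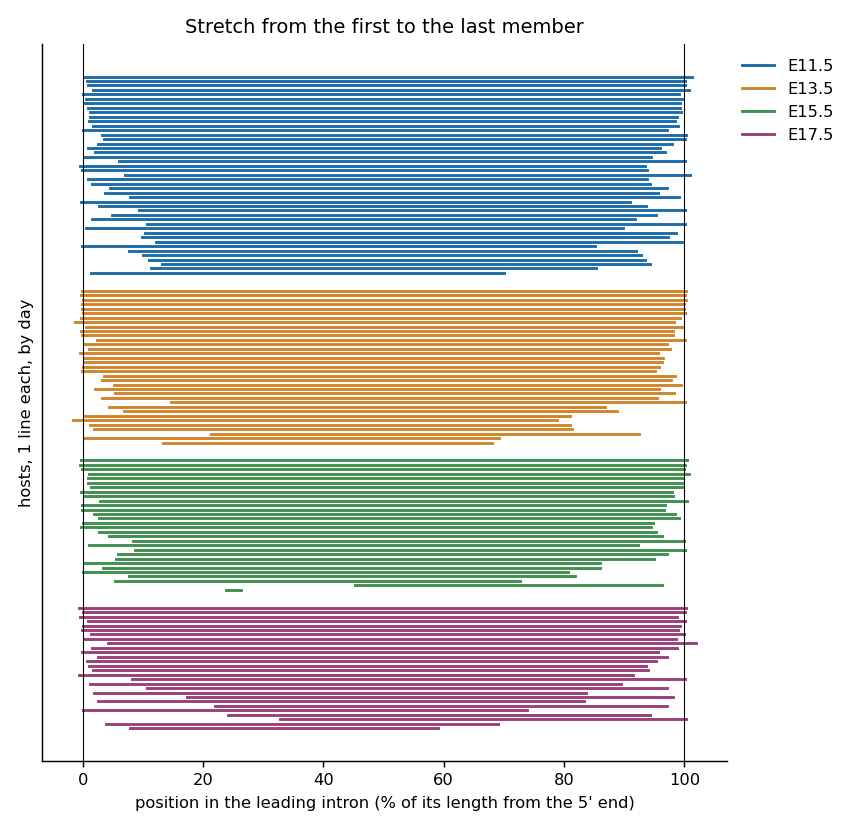
Stretch from the first to the last member of each host, 1 horizontal line per host, as a percentage of the length of the leading intron from its 5′ end, with days by colour and the intron ends at 0 and 100. Most lines reach close to both ends, and 97 of 138 span at least 90%.

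Along a leading intron the authors' signal, a value per peak whose scaling is not given, was almost constant. In Reep3 it lay between 86.7 and 89.8 in all 118 members, and 35 of them had the same value to 4 decimals, 87.3. In Xpo7 the 181 members of the leading intron lay between 9.79 and 10.2, and 139 had the same value to 4 decimals. In Gsk3b the 83 members lay between 89.7 and 90.5, and in 5530601H04Rik the 70 members lay between 31.9 and 32.4. In Cask all 24 members had a signal of 19.3, and Ccdc80 and Sh3bp4 likewise had a single value over the members of their leading intron.

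Over all hosts, 3243 members of leading introns (87.2%) had a signal within 2% of the median of that intron. By day the share was 79.3%, 93.0%, 93.0% and 89.2% from E11.5 to E17.5. The highest signal over the lowest within an intron had a median of 1.04. Between hosts, the median signal differed widely, with 3.04 in the lowest host, Insig2 at E13.5, and 295 in the highest, Gm26870 at E17.5. Some hosts of a day had equal medians, such as Mob3b and Dlgap5 at E15.5, at 4.201 each.

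Peaks in exons mostly did not share a level in this way. For a host with all its members, inside and outside the leading intron, a median of 90% of the peaks lay within 2% of the gene's median signal. In genes with 5 to 9 intronic peaks on a day (211 genes and days) the median was 80%, and in genes with 5 or more exonic peaks (198 genes and days) it was 20%. The highest signal over the lowest had medians of 1.06, 1.07 and 4.45 in these 3 sets. The sets are unlike in extent. Members of a host mostly lay in 1 intron, whereas exonic peaks of a gene could lie in several exons, also of another gene of its strand. A gene with 5 peaks cannot fall below 20%, as its median peak counts itself. Some genes had exonic peaks at an even level. The share within 2% was 100% of 12 exonic peaks in Exosc7 and 90.9% of 11 in Sept7, both at E13.5. In Zc3h14 at E11.5 it was 76.2% of 21, but only 4 peaks had their midpoint in an exon of Zc3h14 itself. Genes just under the threshold had values near those of the hosts. Whether the authors counted coverage across the gap of reads that span a splice junction is not given in the sources used here, and its part in the even signal was not tested.

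**Figure D3:**
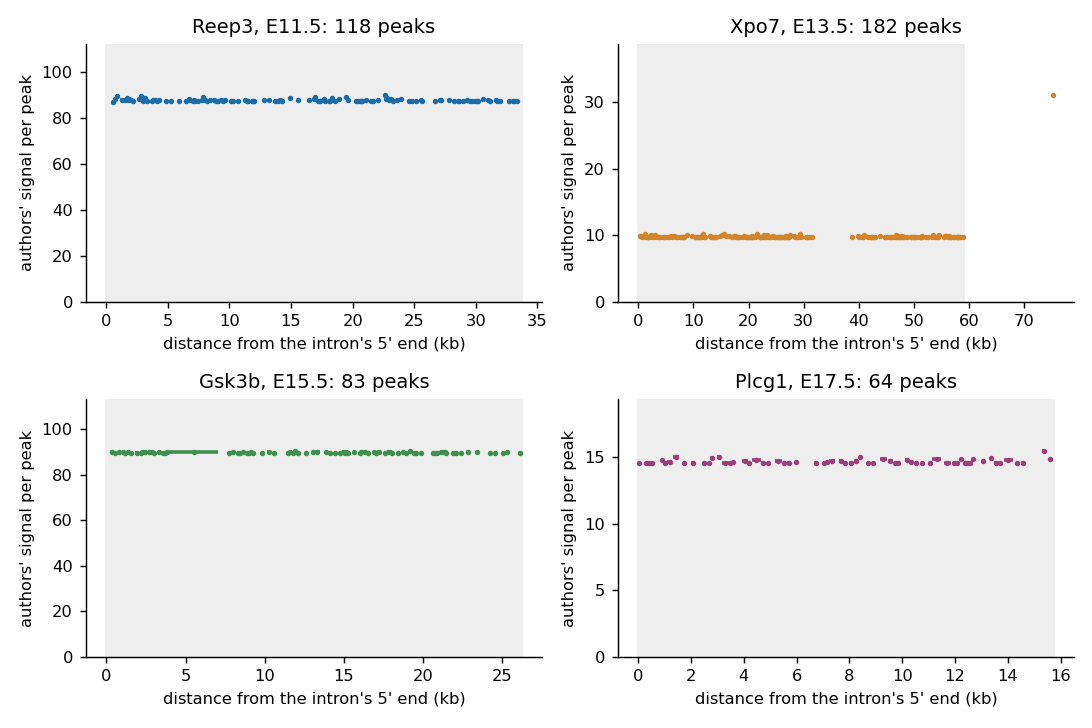
Authors' signal per peak against the distance from the 5′ end of the leading intron in kb, for 1 host of each day, with the intron in grey and each peak as a point on a bar of its width. The points form a level line within the intron, at 86.7 to 89.8 in Reep3, 9.79 to 10.2 in Xpo7, 89.7 to 90.5 in Gsk3b and 14.6 to 15.5 in Plcg1, and the 1 member of Xpo7 outside it stands at 31.0.

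**Figure D4:**
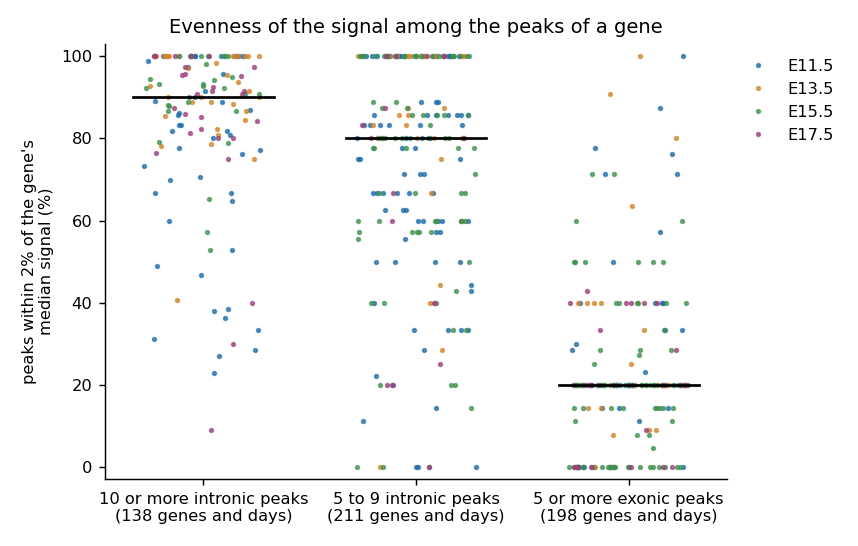
Share of a gene's peaks with a signal within 2% of the gene's median, 1 point per gene and day, for genes with 10 or more intronic peaks (138), 5 to 9 intronic peaks (211) and 5 or more exonic peaks (198). Black lines are medians, at 90%, 80% and 20%.

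Where a host had members in another intron, the signal there mostly lay apart from that of the leading intron. There were 93 members outside leading introns, in 32 hosts, and 8 of these hosts had 3 or more in one further intron. In Map4k3 the 41 members of intron 3 had a signal of 41.5 to 42.2, and the 7 members of intron 24 had 8.50 to 8.71. In Gpc4 the 118 members of intron 1 had 11.9 to 14.6, and the 23 members of intron 3 had 15.6 to 16.6. In Smad5 the 23 members of intron 1 had 6.95 to 7.89 and the 3 members of intron 2 had 22.5 to 24.1. The ranges of the pair of introns did not overlap in any of these 3 hosts, in 6 of the 8, and in 27 of the 32 hosts. They overlapped in Prkar2a, Rsf1, 4933406F09Rik, Synj1 and St7. Outside the 8 hosts the further intron held fewer than 3 members. A range of so few values easily misses a narrow leading range, so the count over all 32 hosts says little. In Rsf1 the signal was 23.6 to 24.1 in the leading intron and 23.7 to 24.2 in the other.

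Evenness had its exceptions. In 10 hosts fewer than 50% of the members of the leading intron lay within 2% of its median, namely Jam2, Smad5, Phip, AV099323, Senp1, Wasl, Gm20388, Gm26870, Nfxl1 and C2cd5. In Jam2, which codes for a junctional adhesion molecule, the 35 members lay between 10.4 and 12.6. In Gm20388, a predicted gene whose leading intron is 4384 kb long, the 27 members lay between 3.62 and 326. In the noncoding gene Gm26870 the 6 members of the leading intron lay between 192 and 321, and 13 peaks lay on the opposite strand. Of all members, 58 lay inside 2 or more genes of their strand, 25 at E13.5 and 33 at E15.5.

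The p-values of the members of an intron differed more than their signal. In the authors' deposited table, p ran between 3.57e-05 and 0.00142 over the members of Reep3 and between 9.1e-05 and 0.0019 over those of the leading intron of Xpo7. Over all hosts, the highest p over the lowest within a leading intron in the authors' deposited table had a median of 10.5. Many neighbours nevertheless carried the same pair of values: the 3813 members had 2977 distinct pairs of signal, to 6 decimals, and p, to 9 significant digits, within their hosts (78.1%). By day the distinct share was 94.8%, 71.7%, 63.2% and 66.4%.

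Members were narrow and closely set. Their median width was 60 bp, against 224 bp for other intronic peaks and 76 bp for exonic peaks. Exactly 50 bp was the width of 42.6% of members, 14.2% of other intronic peaks and 9.94% of exonic peaks. By day, 36.5%, 43.1%, 49.7% and 47.7% of members were 50 bp wide. A few were wide: 133 members over 1000 bp held 45.2% of all member bases, and the widest, in Trak1, had 27772 bp.

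Between neighbouring members of a host the median gap was 142 bp, with quartiles of 58 and 349 bp. The median was 141.5, 135, 146 and 145 bp on the 4 days, a narrow range. No gap was under 26 bp, and a gap of 52 bp occurred 268 times among 3675 gaps. Some hosts were set more loosely, such as Chst8, with a median gap of 620.5 bp over 57 members, and Kat2b, with 2260.5 bp over 17.

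**Figure D5:**
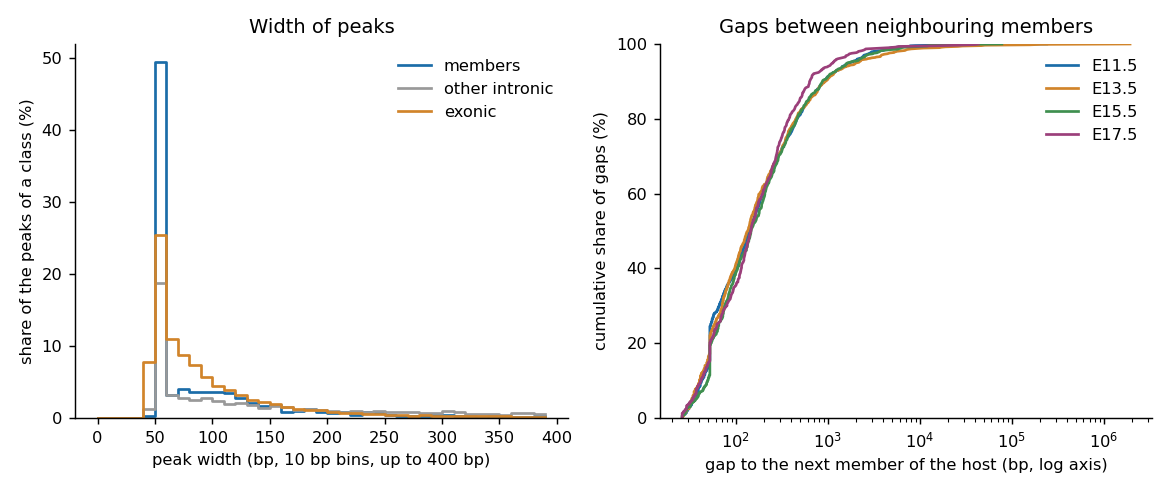
Left, share of the peaks of a class by width in bins of 10 bp up to 400 bp, for members, other intronic peaks and exonic peaks. Right, cumulative share of gaps to the next member of the host on a log axis, by day; the bin that starts at 50 bp holds 49.5% of members, and the curves of the 4 days lie close together around medians of 135 to 146 bp.

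Runs were counted as 3 or more members of a host with gaps of up to 1000 bp. They took in 93.5%, 92.4%, 93.1% and 96.4% of the members from E11.5 to E17.5, in 267 runs with a median of 8 members. The longest held 118 members in Reep3, 116 in Gpc4 and 98 in Rps6ka3 at E11.5, and 113 in Xpo7, 51 in Taf3 and 41 in Map4k3 at E13.5. At E15.5 they held 83 in Gsk3b, 64 in 5530601H04Rik and 57 in Ireb2, and at E17.5 they held 64 in Plcg1, 62 in Gli3 and 25 in Setd5. In Reep3, Gsk3b, Ireb2 and Plcg1 the whole set of members was 1 run.

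Set against intron length, the order of the hosts was different. The number per 10 kb of intron was 29.9 in Nr2f1, a transcription factor of cortical area patterning, and 25.9 in Gskip, both at E15.5, and 20.95 in 5530601H04Rik. At E11.5 it was 22.7 in AV099323, 14.8 in Reep3 and 14.4 in Supt5, which codes for a transcription elongation factor. At E13.5 it was 19.5 in Xpo7, 11.5 in Mrps35, a mitochondrial ribosomal protein, and 10.7 in Lzts1. At E17.5 it was 17.5 in Plcg1, 12.04 in Twf2, an actin-binding protein, and 7.57 in Ccdc80. The median over all hosts was 3.14 per 10 kb.

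A peak of another day overlapped 7.82% of members, against 16.1% of other intronic peaks and 31.3% of exonic peaks. By day the share of members was 14.6%, 2.52%, 7.70% and 0.158%, and that of other intronic peaks was 11.6%, 20.3%, 15.0% and 21.2%. Members thus had the larger share at E11.5 and the smaller one on the later days. Any shared base counted, which favours wide peaks, and members were narrower, with a median of 60 bp against 224 bp for other intronic peaks. The overlap of members rested on few introns: in 7 hosts, peaks of another day covered at least 50% of the leading intron, and these hosts held 278 of the 298 overlapped members. Counting only peaks of other days up to 1000 bp wide, an alternative added after the data were seen, left 0.542%, 1.26%, 0.133% and 0% of members. Other intronic and exonic peaks were not counted under this limit.

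Ptn was the clearest case. At E11.5 its intron 4 held 87 separate members at a median signal of 74.3. At E13.5 the same intron held a single peak of 25542 bp, at a signal of 1097, which ran from 11 bp before one end of the intron to 16 bp past the other. Brms1l and Ift43 had 11 and 10 members at E11.5, and at E15.5 a peak of 4975 bp and one of 21933 bp covered 100% of the intron. In Brms1l that peak passed the intron by 20 bp and 30 bp. Rps6ka3 had 101 members at E11.5, at a median signal of 54.9, and a peak of 22005 bp at E15.5 that covered 75.5% of the intron at a signal of 63.1. Ireb2 had 57 members at E15.5, and at E17.5 peaks covered 98.8% of the intron.

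Exonic peaks accompanied the members in some hosts and not in others. In 71 of 138 hosts (51.4%) a peak of the same day had its midpoint in an exon of the host. The other genes with an intronic peak were counted more widely. In 46.1% of them a peak assigned to the gene had its midpoint in an exon of any gene of that strand. As the measures are unlike, no order between the shares follows. By day the hosts' share was 60%, 42.9%, 46.7% and 53.6%, and that of the other genes was 38.2%, 41.1%, 52.5% and 48.9%. An exon that borders the leading intron was touched by a further peak in 27 hosts. Reep3 had 6 exonic peaks, Ptn 9 and Sept7 11, whereas Gpc4, Plekha5, Gli3 and Chd7 had 0. On the opposite strand, 8 hosts had peaks, 41 in all, of which Gm20388 held 15 and Gm26870 held 13.

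Of the hosts, 132 were protein-coding and 6 noncoding. Gene lists of cortex biology, chosen with earlier results of these data known, held 21 of them, and 138 of the 2825 genes with an intronic peak on any day (4.88%) were hosts. Gene length was not taken into account in the counts by list. Among RNA-binding and splicing genes 4 of 55 with an intronic peak were hosts: Upf2, a factor of nonsense-mediated decay, had 18 members at E11.5, Elavl4, the neuronal RNA-binding protein HuD, had 15 at E11.5, and Hnrnpll and Mbnl2, both splicing regulators, had 15 at E17.5 and 13 at E15.5. In Hnrnpll the members of intron 1 had signals of 14.8 to 16.1, and in Upf2 the 17 members of intron 21 had 42.1 to 44.0. Within 2% of the median lay 80% of these members in Hnrnpll and 94.1% in Upf2. The 1 further member of Upf2, in intron 3, had a signal of 13.4.

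Among transcription regulators of cortical cells 4 of 25 were hosts, namely Nfib, Sox6, Gli3 and Nr2f1, with 277 members together. Among chromatin regulators 6 of 50 were, among them Chd7, with 38 members, Setd5, with 25, Phf20l1, with 24, and Kat2b, with 17. The axon guidance list had 1 of 13 (Slit2, a secreted guidance ligand, 13 members), the synapse list 1 of 17 (Magi1, a scaffold protein, 15), the cytoskeleton list 2 of 25 (Kif1a, an axonal kinesin, 18, and Clasp1, a microtubule-binding protein, 10), the ubiquitin list 1 of 24 (Fbxw11, 10) and the cell cycle list 2 of 26 (Kif20b, a mitotic kinesin, 15, and Cep112, a centrosomal protein, 10). The vessel and blood lists had 0 hosts, with 1 and 2 genes holding any intronic peak. Stau2 itself had 0 intronic peaks on each day and 1, 1, 2 and 1 exonic peaks from E11.5 to E17.5.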

How the data were processed

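Per the labels, 24 libraries of STAU2 RIP and Input RNA from embryonic cortex lie behind 8 deposited peak lists in mm10, 1 per day and strand. Per the submitters' processing notes, the tools were bedtools 2.17.0, Cufflinks 2.2.1 and TopHat2 2.0.9. Their roles and the peak caller are not stated in the sources used here. Each deposited peak has a score, a signal whose scaling is not stated, and the authors' p-value and q-value of STAU2 RIP against Input. Whether that test was one-sided is not stated. The score was not used.

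Gene models were GENCODE vM21. A midpoint in several genes went to a protein-coding one first, then to the longest. Candidate regions per list were recovered from q, p and rank, as in a Benjamini-Hochberg adjustment. At E13.5 on the minus strand, 2 better ranks were unlisted. Counts, shares, widths and gaps were computed with python 3.11.15, pandas 2.3.3, numpy 2.4.6 and scipy 1.17.1, and the rule was tested on simulated data. Members, hosts and gene lists were chosen with earlier results of these data known. Named hosts were the 8 with most members per day, the 3 densest per 10 kb, those of the 3 longest runs, Upf2, Hnrnpll, Stau2 and the leading hosts of each list. Other genes were named after their values were seen. Some items are not reported here. The rule for printed sequences could not be met in full without genome sequence, so 9 members of 3 genes were chosen, after their values were seen, from the 17 that transcripts or promoter windows hold. The depth of the libraries is unknown.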

Additional observations from a re-analysis of the deposited data

How the results depend on the processing

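With the stronger 50% of each day's peaks by the authors' deposited p there were 25, 17, 11 and 11 hosts from E11.5 to E17.5, and with peaks up to 100 bp apart merged 27, 19, 18 and 18. At 15 peaks per host E13.5 had 23 hosts, and with lists of equal length E15.5 had 15, the fewest of the 4 days. The members' share of intronic peaks was 51.6%, 50.1% and 30.7% at E11.5 to E15.5 at 8 peaks per host, and 41.7%, 40.4%, 22.2% and 30.3% on the 4 days at 15. It was 55.1%, 62.5%, 43.4% and 60.6% when no base of a peak lay in an exon, which takes exon-touching peaks out of the total, and 34.1%, 31.9%, 18.3% and 24.9% after merging. In the stronger 50% it was 49.8%, 40.8% and 33.2% at E11.5, E13.5 and E17.5, and at equal list lengths 30.7% at E15.5. Hosts dense on 2 or more days numbered 5 at 8 peaks per host and 0 under the other 6 alternatives. Runs held 84.1%, 84.3%, 85.0% and 90% of members at gaps up to 500 bp, and 96.6%, 96.0%, 96.0% and 99.1% at up to 2000 bp. In the stronger 50% the median gap was 163, 170 and 181 bp at E13.5, E15.5 and E17.5. Members overlapped by a peak of another day were 11%, 0%, 0% and 0% in the stronger 50%, 0% at E17.5 without exon contact, and 0.542%, 1.26%, 0.133% and 0% against peaks up to 1000 bp. Giving a midpoint to the shortest gene and the peaks up to 1000 bp were alternatives added after the data were seen. The cause of these shifts was not tested. Of 95 values compared, 45 stayed within 1.5 times of a count or within the interval of the reported share or median.

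No paired analysis was possible because each list joins all 3 replicates of a day, and leaving out a replicate was likewise not run. The comparison of GC content with flanking intron was not run, as no genome sequence was used here. No read totals accompany the peaks, so the depth behind each is unknown, and no spread between litters can be set beside any value.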
